A study of Homo sapiens with 2 samples.

Results

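Type I and type II keratins were taken as all genes with a symbol of KRT, digits and at most 1 letter from A to C that alone names a probe set in the platform annotation. They are 44 genes with 56 probe sets, 24 of type I and 20 of type II, of 19735 genes in all. The samples were the established line HARA, derived from a human squamous cell carcinoma of the lung, and a subline of it that metastasises readily to bone, HARA-B4. Total RNA of each was hybridised to 1 Affymetrix array, both lines were cultured in the same serum-supplemented RPMI medium, and the labels state that no replicates were made. Each group is therefore 1 sample (n = 1). A difference between the lines cannot be told apart from a difference between 2 cultures of 1 line. No test, p-value or SD between samples is given, and the only SD is between probe sets of 1 gene. Values are deposited probe set signals in arbitrary linear units. A signal compares the 2 arrays on 1 probe set and does not compare genes with each other. The genes KRT6A, KRT6B, KRT6C, KRT17, KRT26, KRT28, KRT34, KRT39, KRT81, KRT82 and KRT86 were not analysed here.

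Keratins are the intermediate filament proteins of epithelial cells. They form obligate heteropolymers of 1 acidic type I chain and 1 basic or neutral type II chain, and the pair a cell makes follows its place in the epithelium: KRT5 with KRT14 in basal cells, KRT1 with KRT10 in the spinous layer above them, KRT4 with KRT13 in moist mucosa, KRT8 with KRT18 in simple epithelia, and KRT6 isoforms with KRT16 or KRT17 after wounding. Pathologists use this pattern to tell squamous lung tumours, which carry basal keratins, from glandular ones, which carry simple keratins.

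The arrays had similar overall levels, with a median probe set signal of 17.3 for HARA and 16.2 for HARA-B4 and a 3' to 5' signal ratio of ACTB of 1.39 and 1.31. A background level of 27.2 was taken from 163 probe sets of olfactory, taste and vomeronasal receptors, at their 95th percentile. All 7 measured squamous lineage markers were above it on both arrays, and 2 were called higher and 0 lower in HARA-B4 at 2-fold. Of all genes above background on at least 1 array, 3.62% were called higher and 4.21% lower. The list named 8 such markers, and TP63 was not analysed here. CALML3, a calmodulin-like protein of squamous epithelium, was at 151 and 1321 and the plakophilin PKP1 at 191 and 672. A second CALML3 probe set was at background on both arrays (9.17 and 1.11). The desmosomal cadherins DSC3 (log2 difference -0.98, and -1.36 by a second probe set) and DSG3 (-0.50) were lower by value. Of markers of other cell types, COL1A2, COL3A1, DCN, LUM, PTPRC, CD3E, VWF, CDH5, MSLN, IBSP and CTSK were at background on both. The blood markers CD79A (63.4 and 55.2) and HBB (35.7 and 33.9) and the endothelial PECAM1 (50.6 and 50.4) were above background on both. So were the glandular and alveolar markers NKX2-1 (58.6 and 41.9) and SFTPB (43.7 and 56.1), and SFTPC was above it in HARA only. WT1, a mesothelial and kidney transcription factor, was at a signal of 0.979 for HARA and 147 for HARA-B4, and the fibroblast marker THY1 at 63.8 and 23.8. A second WT1 probe set was at background on both arrays (1.44 and 2.84). In all, 1 of 6 fibroblast, 2 of 6 blood, 1 of 4 endothelial, 1 of 3 mesothelial, 3 of 6 glandular and alveolar and 0 of 2 bone cell markers were above background on at least 1 array, and their part in the keratin values was not tested.

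The keratins above background on at least 1 array were mostly those of stratified epithelium (9 genes, 7 of them on both arrays) and simple epithelium (4 genes, 3 on both). Of the 44 genes, 16 were above background on at least 1 array and 13 on both, and 28 were on neither. Among these 16, keratins of the stratified epithelium were higher in HARA-B4 in 8 of 9 by sign, 4 of them at 2-fold or more, and the simple keratin KRT19 was lower. A gene was called when it was at least 2-fold apart, and where only 1 array was above background the other was set to the background level, which makes the fold a lower bound. By that rule KRT1, KRT13, KRT15 and KRT16 were higher in HARA-B4 and KRT19 was lower. Over all 11486 genes above background on at least 1 array, 3.62% were called higher and 4.21% lower, 7.83% in all, against 4 higher and 1 lower of 16 keratins (31.2% in all). The median keratin difference was 0.44 on the log2 scale, HARA-B4 minus HARA, with bounds taken at their value, and that of all genes was 0.01. By sign alone, 10 of the 16 were positive and 6 negative, and of all genes 51.5% were positive. KRT1 and KRT4, both counted in the 8 of 9, were above background on HARA-B4 only, and KRT19 on HARA only. The rule fixed the signs of these genes, and with them the direction of the KRT1 and KRT19 calls. Of the 7 stratified keratins above background on both arrays, only KRT5 was lower by sign, and KRT13, KRT15 and KRT16 were called higher. Over the 13 keratins above background on both arrays the median difference was 0.38, and over all such genes 0.02.

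**Figure D1:**
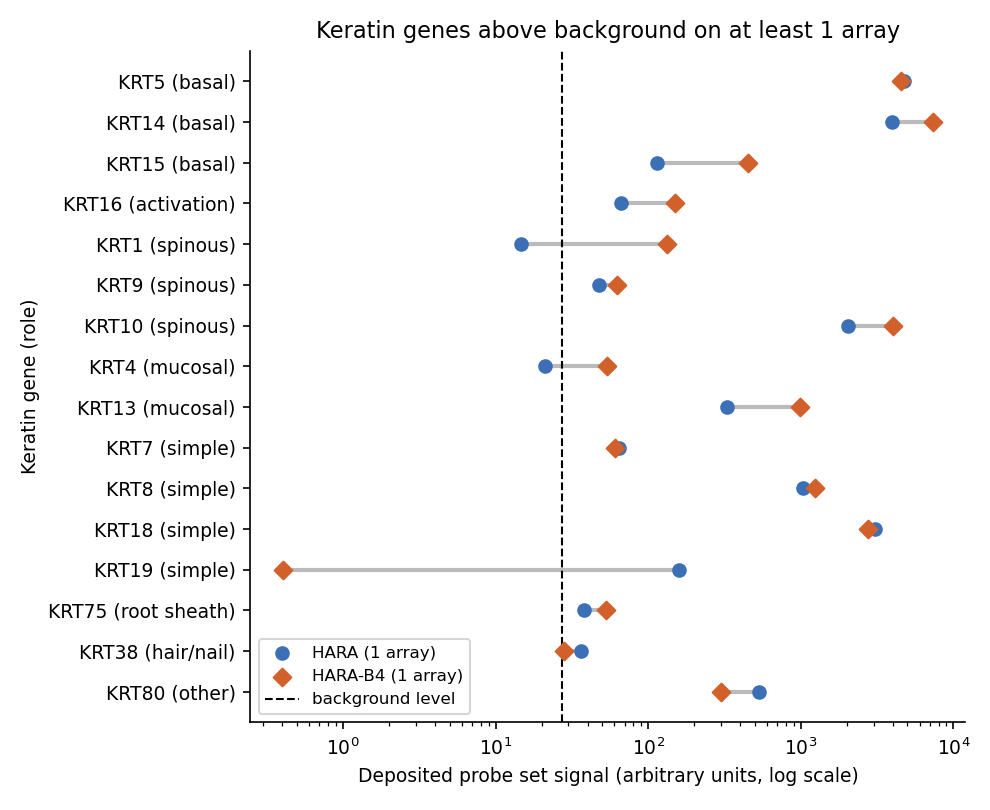
Deposited signal on a log axis (arbitrary units) of the 16 keratin genes above background on at least 1 array, by role, with HARA as circles and HARA-B4 as diamonds (1 array each) and the background level of 27.2 as a dashed line; positions compare the 2 arrays within a row, not genes. KRT1 and KRT4 cross the background line upward in HARA-B4 and KRT19 crosses it downward, while the points of KRT5, KRT7, KRT8 and KRT18 nearly overlap.

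The basal keratins parted. KRT15, a type I keratin of basal cells and of stem cells of the hair follicle bulge, had a signal of 114 for HARA and 454 for HARA-B4. This is a log2 difference of 1.997, and only 0.451% of the 10202 genes above background on both arrays had a difference at least as high. KRT14, the usual type I chain of basal cells, was at 3938 for HARA and 7345 for HARA-B4, a log2 difference of 0.90 that missed 2-fold. KRT5, its type II partner, was at 4723 and 4504, a log2 difference of -0.07. Both type I chains were thus further up in HARA-B4 than the type II chain of the same cells.

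The only measured scale for error is technical. The log2 difference had an SD of 0.297 between probe sets of 1 gene, over 4829 genes measured above background by more than 1 probe set on both arrays. KRT5, KRT7, KRT8 and KRT18 lay within that SD, and 9 of the 16 keratins lay beyond 2 such SDs (0.593). That is 56.2% of these keratins, against 20.7% of all genes above background on at least 1 array. KRT1, KRT4 and KRT19 are among the 9 through bounds, with signs fixed by the background rule. The rest of the 9, above background on both arrays, were KRT10, KRT13, KRT14, KRT15, KRT16 and KRT80. KRT1, KRT5, KRT8, KRT13, KRT14, KRT15, KRT16 and KRT18 were each read by 1 probe set, so their values have no check within the gene. The SD holds no variation between cultures.

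KRT16 was the measured keratin of the activation group, which epithelia make after wounding and in fast-growing states. Its signal was 66.8 for HARA and 149 for HARA-B4, a log2 difference of 1.16. The call was close to the limit: on log2(signal + 16) the difference was 0.99. KRT6A, its usual type II partner, was not analysed here, so the pair could not be set side by side.

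Spinous keratins replace the basal pair when a keratinocyte leaves the basal layer. Of 5 spinous and cornifying keratins, 3 were above background and 1 was called, higher in HARA-B4. KRT1, the type II chain, had a signal of 14.6 in HARA, below background, and 133 in HARA-B4. It was at least 4.91-fold higher in HARA-B4. KRT10, its type I partner, was above background on both arrays with all 3 of its probe sets. These read 2037 and 4041, 1652 and 2789, and 1208 and 2184 in HARA and HARA-B4, with log2 differences of 0.99, 0.76 and 0.85. All 3 were therefore below 2-fold and pointed the same way, and 2 of the 3 were read by probe sets ending in _x_at, a mark of probes that can match other transcripts. KRT10-AS1, a transcript antisense to KRT10 and no keratin, was at 299 and 446, and whether it adds to the KRT10 signals was not tested. KRT9, the type I keratin of palm and sole skin, was at 47.8 and 62.3, a log2 difference of 0.38. KRT2 and KRT77 were at background on both arrays, with signals of at most 20.9.

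Of 7 mucosal and corneal keratins, 2 were above background and 1 was called, higher in HARA-B4. KRT3, KRT12, KRT24, KRT76 and KRT78 were at background on both arrays. KRT13, the type I chain of moist squamous mucosa, had a signal of 329.7 for HARA and 983 for HARA-B4, a log2 difference of 1.58. Of the genes above background on both arrays, 1.05% had a difference at least as high. KRT4, its type II partner, was at 21.0 for HARA and 53.7 for HARA-B4. It was at least 1.98-fold higher, just short of a call, and with the background lowered by 1 on the log2 scale its difference was 1.35 and it was called. A second KRT4 probe set was at background on both arrays (1.94 and 4.68). KRT13 has 1 probe set, which ends in _s_at, and it went unmeasured when such probe sets were left out.

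Of the 4 simple keratins above background, KRT19 was called and KRT7, KRT8 and KRT18 were not. KRT19, the smallest type I keratin, marks ducts and simple epithelia and is also a marker used in searches for carcinoma cells in blood and marrow. Its signal was 159 for HARA and 0.403 for HARA-B4, so it was at least 5.84-fold lower in HARA-B4. A second KRT19 probe set was at background on both arrays, with signals of at most 2.46. Because of it, the mean of all KRT19 probe sets was at background on both arrays and the call was lost with that mean. KRT7, the type II keratin often paired with KRT19 in ducts, was at 64.7 and 60.2 (log2 difference -0.11). Another KRT7 probe set was at 48.0 for HARA and 9.48 for HARA-B4, at least 1.77-fold lower there, and the other 2 were at background, so its probe sets did not give 1 size.

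The pair of simple epithelium in the strict sense was level. KRT8, the type II chain, was at 1034 for HARA and 1238 for HARA-B4, a log2 difference of 0.26. KRT18, its type I partner, was at 3065 and 2740.0, a difference of -0.16. Both were read by 1 probe set each ending in _x_at, and related sequences are numerous for this pair. KRT20 and KRT23, of gut and pancreatic epithelium, were at background on both arrays.

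**Figure D2:**
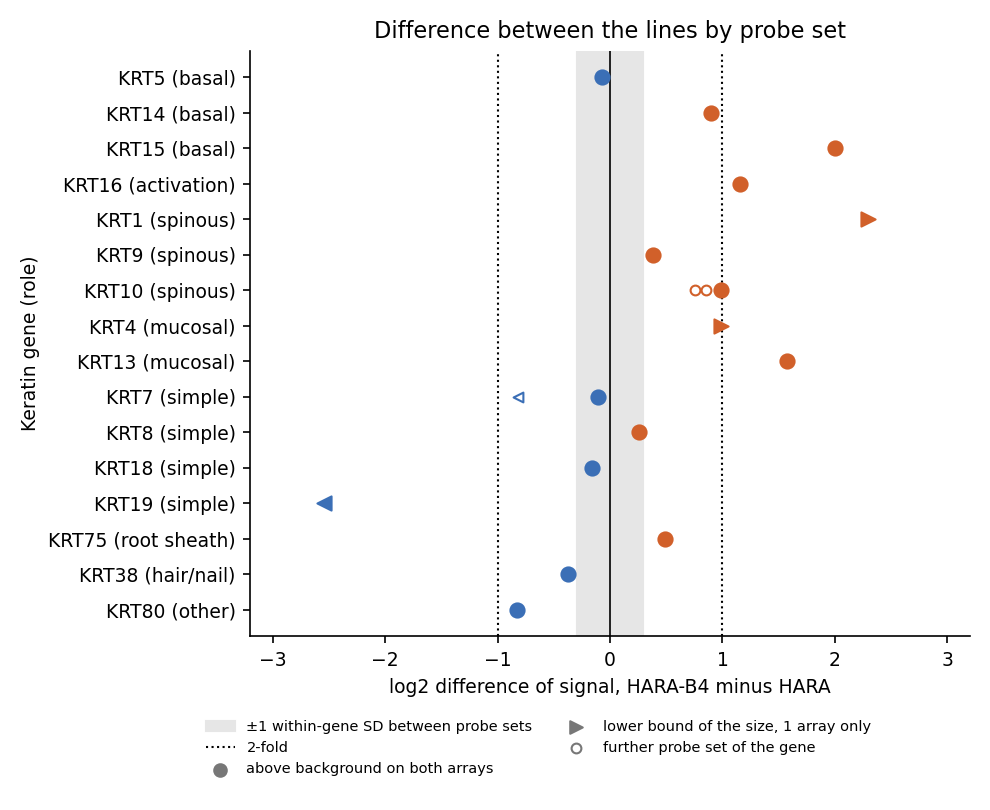
Log2 difference of signal, HARA-B4 minus HARA, for every probe set above background of the 16 keratin genes; filled marks are the probe set that stands for the gene, open marks further probe sets, and triangles lower bounds for probe sets above background on 1 array only. The grey band is 1 within-gene SD between probe sets (0.297) and dotted lines mark 2-fold; KRT1, KRT13, KRT15 and KRT16 lie to the right of the 2-fold line and KRT19 to the left.

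Few keratins of hair, nail and follicle were above background. In the hair and nail group 1 of 12 genes was, KRT38, at 36.4 for HARA and 28.1 for HARA-B4 (log2 difference -0.37). In the root sheath and companion layer group 1 of 7 was, KRT75, at 37.8 and 53.1 (0.49). Both lay near the background level of 27.2. With that level 1 log2 unit lower, 28 keratins were above it in place of 16, and KRT25, KRT27, KRT31, KRT32, KRT37 and KRT85 were among those added. The 11 other hair and nail genes had signals from 0.508 to 25.4 and the 6 other root sheath genes from 1.65 to 24.7, below background on both arrays. KRT80, a type II keratin of many epithelia, was at 530.1 for HARA and 298 for HARA-B4, a log2 difference of -0.83. KRT222, a divergent type I keratin, was at background by its main probe set, and another of its probe sets read 0.698 for HARA and 29.4 for HARA-B4, just above background. KRT37 (25.4), KRT23 (25.2) and KRT27 (24.7) in HARA-B4 and KRT78 (23.7) in HARA were the signals just below the level.

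Type I and type II chains were then set side by side for the pairs with both chains measured. In the KRT5 and KRT14 pair the type I chain was 0.97 further up on the log2 scale, and in the KRT8 and KRT18 pair it was -0.42 relative to the type II chain. KRT4 and KRT13 were both higher in HARA-B4, by at least 0.98 and by 1.58. KRT1 and KRT10 were also both higher, by at least 2.30 and by 0.99. KRT7 and KRT19 differed most in this set, at -0.11 and at most -2.55. Over all type I keratins above background 3 of 9 were higher and 1 lower, and over type II 1 of 7 was higher and 0 lower, with medians of 0.90 and 0.26. The difference between the types was not tested.

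**Figure D3:**
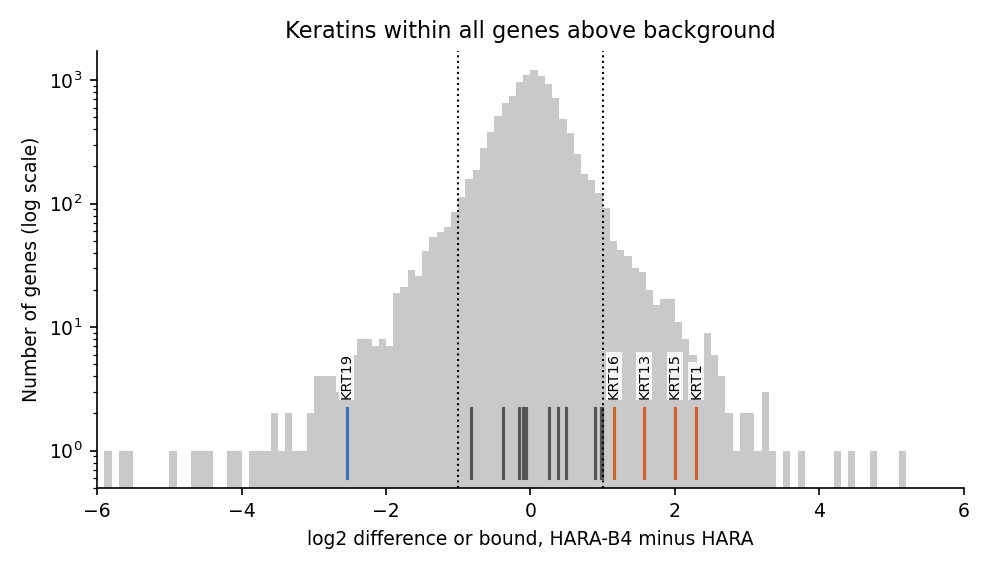
Number of genes (log axis) by log2 difference or bound, HARA-B4 minus HARA, for the 11486 genes above background on at least 1 array (grey), with ticks for the 16 keratins (orange called higher, blue called lower, dark grey neither) and dotted lines at 2-fold. The 5 called keratins are labelled; the rest lie between -0.83 and 0.99.

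Nearly all type I keratin genes lie in 1 cluster on chromosome 17 and the type II genes in 1 on chromosome 12, where KRT18, a type I gene, sits beside KRT8. The order was taken from RefSeq (GRCh38.p14), and the labels name no build for the probes, so probe sets are not placed by coordinates. In the chromosome 17 cluster the neighbours KRT13, KRT15 and KRT19 differed by 1.58, 1.997 and at most -2.55, so the called genes of opposite direction lay side by side. The 10 genes above background before this cluster, from PSMD3 to SMARCE1, had a median difference of 0.43, with 8 of 10 positive and 0 called. The 10 genes after it, from EIF1 to NKIRAS2, had a median of 0.05, and 1 was called, JUP, which encodes plakoglobin. The 8 keratins of the cluster above background had a median of 0.94. In the chromosome 12 cluster the 8 keratins had a median of 0.10, the 10 genes before it 0.29 (10 of 10 positive) and the 10 after it -0.03. On either side 1 gene was called higher, DIP2B (1.39) before and IGFBP6 (1.01) after. The part of the flanking shift in the keratin values was not tested.

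**Figure D4:**
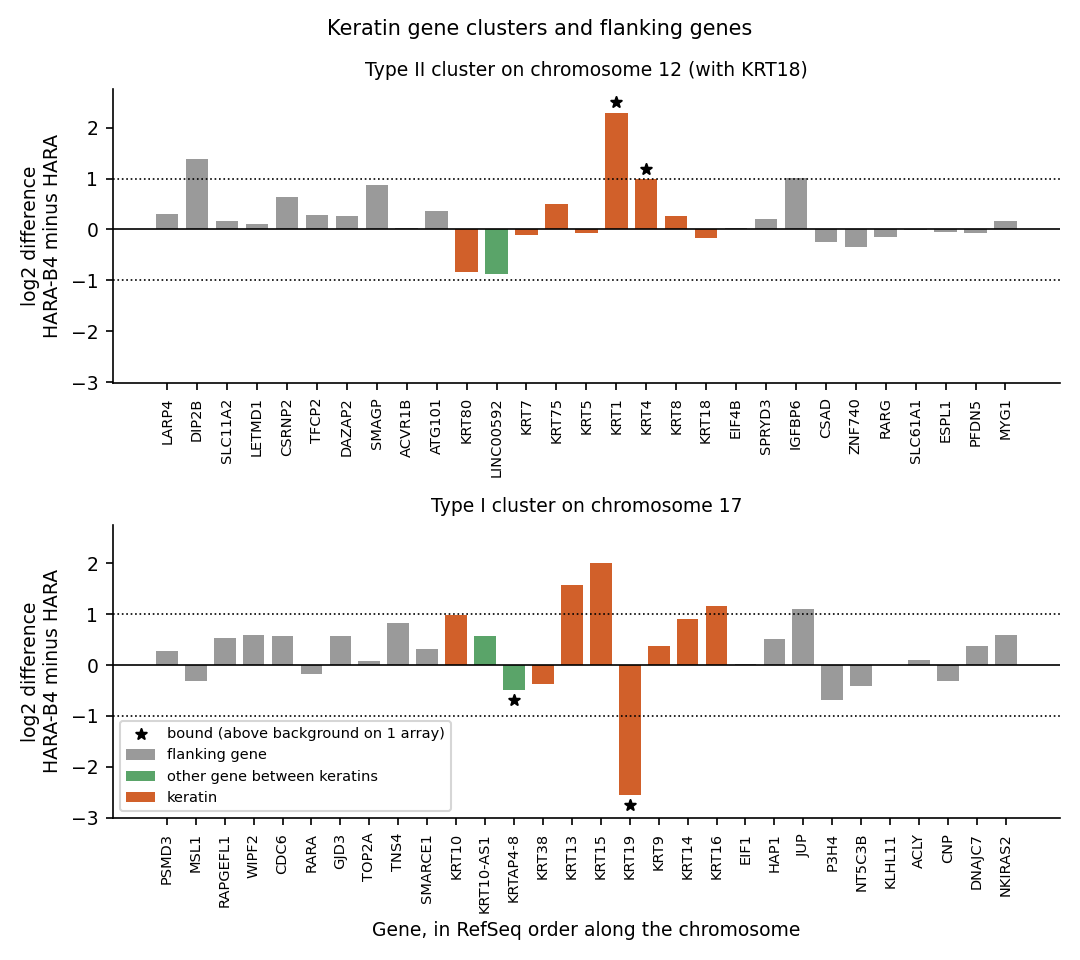
Log2 difference, HARA-B4 minus HARA, of the keratins above background (orange), other genes between them (green) and the 10 genes above background on both arrays on either side (grey), in RefSeq order along each chromosome; stars mark bounds and dotted lines 2-fold. KRT19 points down between KRT15 and KRT9, and the flanking genes before both clusters are mostly above 0.

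Promoter sequences of 7 of the 16 keratins above background were in the RefSeq table (GRCh38.p14), KRT4, KRT5, KRT8, KRT9, KRT10, KRT38 and KRT75. The called keratins KRT1, KRT13, KRT15, KRT16 and KRT19 had no entry there. The 250 bases before the start site are printed for KRT10, KRT4, KRT5 and KRT8, 1 each of the spinous, mucosal, basal and simple groups, chosen after their values were seen, to show 2 genes near 2-fold beside 2 nearly level ones. All lie on the minus strand, at chr17:40822615-40822864, chr12:52814117-52814366, chr12:52520395-52520644 and chr12:52926470-52926719, and are written 5′ to 3′ with motif matches in capitals.
KRT10: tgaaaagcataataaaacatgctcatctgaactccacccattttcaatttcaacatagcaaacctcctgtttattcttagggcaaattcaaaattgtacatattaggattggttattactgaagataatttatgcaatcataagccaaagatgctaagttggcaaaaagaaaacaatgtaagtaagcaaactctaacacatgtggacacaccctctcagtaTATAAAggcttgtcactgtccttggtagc
KRT4: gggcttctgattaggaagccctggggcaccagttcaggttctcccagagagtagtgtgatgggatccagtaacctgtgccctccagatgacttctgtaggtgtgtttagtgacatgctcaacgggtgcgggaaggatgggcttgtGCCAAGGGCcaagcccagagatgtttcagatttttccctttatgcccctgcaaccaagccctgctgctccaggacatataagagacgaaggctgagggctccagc
KRT5: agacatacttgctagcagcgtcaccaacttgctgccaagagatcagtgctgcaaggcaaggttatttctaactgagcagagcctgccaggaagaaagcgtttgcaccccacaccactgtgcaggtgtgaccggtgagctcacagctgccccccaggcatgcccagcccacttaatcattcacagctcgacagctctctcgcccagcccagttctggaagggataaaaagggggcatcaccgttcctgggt
KRT8: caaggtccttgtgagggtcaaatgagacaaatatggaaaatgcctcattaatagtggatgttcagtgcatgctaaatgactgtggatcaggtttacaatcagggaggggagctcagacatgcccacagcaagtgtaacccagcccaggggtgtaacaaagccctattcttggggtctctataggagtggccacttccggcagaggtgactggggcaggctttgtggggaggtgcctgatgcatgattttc
Capitals mark a TATA box (TATAAA) in KRT10, which begins 29 bases before the start, and an AP-2 site (GCCNNNGGC) in KRT4, which begins 105 bases before it. The AP-1 site (TGANTCA) and the GC box (GGGCGG), to which SP1 and KLF factors bind, were also searched, on both strands. None of the 4 motifs matched in the printed stretches of KRT5 and KRT8. For each keratin only 1 start site was searched, so any other start of the gene is not covered. Only exact matches were counted, so near matches to the TATA box, such as ataaaa in KRT5 and tataag in KRT4, are not marked. No motif match overlapped another in these sequences. Of all 35116 promoters of the same length, 10.7% held the TATA box, 6.57% the AP-1 site, 19.8% the AP-2 site and 42.6% the GC box. Of the 29 measured keratin genes with an entry, 15 held the TATA box (51.7%), 0 the AP-1 site, 5 the AP-2 site (17.2%) and 4 the GC box (13.8%). In 13 of these 15 the TATA box began 25 to 35 bases before the start. Of the 7 keratins above background with an entry, 2 held the TATA box (KRT10 and KRT38) and 0 the AP-1 site. The AP-2 site was in 3 of them (KRT4, KRT9 and KRT75) and the GC box in 3 (KRT9, KRT38 and KRT75). These are matches of letters and no measure of binding, and their relation to the differences between the lines was not tested.

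Among proteins that hold keratin filaments in the cell, 3 desmosome plaque genes were called. Of 14 measured anchors and cross-linkers, all above background on both arrays, 2 were called higher in the subline and 1 was called lower. Their median was 0.26, and the shares over all genes above background on at least 1 array were 3.62% higher and 4.21% lower. PKP1, the plakophilin of the suprabasal desmosome, was at 191 for HARA and 672 for HARA-B4 (log2 difference 1.82, and 1.32 by a second probe set). JUP, plakoglobin, was at 801 and 1718 (1.10). PKP2, the plakophilin of simple epithelium and heart, was at 360.4 and 48.6 (-2.89), and its other probe set was at 42.7 in HARA and at background in HARA-B4. Of the 11 not called, the plakins EPPK1 and PPL (0.82 and 0.74) and the keratin-binding TCHP (-0.64) were the furthest from 0, and 6 lay within the technical SD of 0.297. Desmoplakin (DSP), which ties keratin to the desmosome, differed by 0.21, and plectin (PLEC) by 0.40.

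Genes that bundle or modify keratins in cornifying cells gave few values. Of 10 measured, 3 were above background. PADI3, a peptidylarginine deiminase that citrullinates filament proteins of the follicle and upper epidermis, was at 54.6 for HARA and 222 for HARA-B4 (log2 difference 2.03). PADI1 and PADI2 differed by -0.11 and -0.06. FLG, the bundling protein filaggrin, and the crosslinking transglutaminases TGM1, TGM3 and TGM5 were at background on both arrays.

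Of 16 other intermediate filament genes, 9 were above background, 2 higher and 0 lower, with a median of 0.29. The shares over all genes above background on at least 1 array were 3.62% higher and 4.21% lower. The 2 higher were INA, alpha-internexin, a neuronal filament, at 40.0 and 118 (1.57), and SYNM, synemin, at 107 and 228 (1.09). NEFL, the light neurofilament chain, was at 4998 and 2577 by its main probe set (-0.96, short of a call), and its other 2 probe sets passed 2-fold, at -1.42 and -1.20. Vimentin (VIM), the filament of mesenchymal cells, was among the 7 not called.

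Of 22 transcription factors known to act on keratin genes or squamous differentiation, 20 were above background, 4 higher and 0 lower, with a median of 0.24. GATA3, a factor of luminal and epidermal cells, was at 9.85 for HARA and 174 for HARA-B4, at least 6.39-fold higher. KLF4, a factor of the differentiating layers, was at 174 and 663 (log2 difference 1.93). GRHL1, a grainyhead factor that regulates desmosomal cadherin genes, was at 84.1 and 262 (1.64, and 0.85 by another probe set). ZNF750, a differentiation factor under p63 control, was at 21.0 and 72.5, at least 2.67-fold higher. Over the 4 lists of anchors, modifiers, other filaments and factors together, 9 of 46 genes above background were higher and 1 lower, against 3.62% and 4.21% of all genes. The lists were chosen with earlier results of these data known, so these counts are a description only. GATA3 and ZNF750 were above background on HARA-B4 only and could not have come out lower.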

How the data were processed

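Total RNA of HARA and HARA-B4 was hybridised to 1 array each. The deposited values are linear signal intensities of 54675 probe sets, made with Affymetrix Expression Console per the submitters' processing notes. Its version, summary algorithm and scaling are not given in the labels or files used. The signals were not rescaled and were compared as log2 values.

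Of 41097 probe sets with 1 symbol in the platform annotation, 41043 matched the RefSeq table (GRCh38.p14) by Entrez ID. The probe set with the highest mean log2 value stood for its gene. The background level was 4.76 on the log2 scale. Every keratin above background was named; in other lists, up to 4 members at 2-fold or, with none, the 2 brightest. DSP, PLEC, EPPK1, PPL, TCHP, PADI1, PADI2, FLG, TGM1, TGM3, TGM5, NEFL, VIM, DSC3, DSG3, SFTPC, the flanking genes and the markers at background were named after their values were seen. A single array per line leaves no residual degrees of freedom, and the small number of arrays sets the precision. The members and lists were chosen with earlier results of these data known. The alternatives changed the scaling, background level, probe set choice, added signal and fold. The calling rule was checked on simulated data, with changes placed only in genes well above background in HARA. It was not checked for bounds such as those of KRT1 and KRT19, for changes close to 2-fold or for variation between cultures. Python 3.11.15, pandas 2.3.3 and statsmodels 0.14.6 were used.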

Additional observations from a re-analysis of the deposited data

How the results depend on the processing

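The 4 keratins called higher and 1 called lower kept these counts under subtraction of the median difference, a lowess trend removed and a background 1 log2 unit higher. They also kept them when every probe set above background on at least 1 array had to pass. That setting could not change these calls, because each of these genes had only 1 such probe set. The count of higher keratins was 5 with quantile normalization and with a background 1 log2 unit lower, and 3 without probe sets ending in _x_at, _s_at or _a_at and on log2(signal + 16). At 1.5-fold 7 were higher and 2 lower, and at 3-fold 2 were higher and 1 lower. With the mean of all probe sets 0 were lower, because the second KRT19 probe set was at background. Over all genes, 1174 were higher and 1269 lower at 1.5-fold and 141 and 155 at 3-fold, against 416 and 483. In the 4 lists of keratin partners, 9 higher became 15 at 1.5-fold, 5 at 3-fold and 5 without probe sets ending in _x_at, _s_at or _a_at. The 1 lower became 3 at 1.5-fold, 2 with quantile normalization and with the mean of all probe sets, and 0 without those probe sets and where every probe set had to pass. Beyond fewer probe sets or another fold, the cause was not tested. The median keratin difference ran from 0.26 to 0.51. The bounds of KRT1 (1.30 to 3.19) and KRT19 (-3.55 to -1.55) moved with the background level. No paired analysis was possible because each group holds 1 array.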

Other observations

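Other genes with keratin in their name, outside the symbol rule and given after their values were seen, were mostly at background. Of 34 probe sets of keratin-associated proteins, which embed hair keratins, 2 were above background, KRTAP4-8 at 38.0 for HARA and 21.0 for HARA-B4 and KRTAP10-11 at 6.65 and 30.4. The keratin pseudogene KRT8P12 was at 65.3 and 36.8 by 1 probe set and at 52.9 and 57.7 by another. KRTCAP3, a membrane protein that is no keratin, was at 382 for HARA and 25.5 for HARA-B4, at least 14.1-fold lower. KRTCAP2, a subunit of the oligosaccharyltransferase, was at 1262 and 1296. None of the 8 probe sets with several symbols that include a keratin-named gene was above background.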
